A study of Homo sapiens with 16 samples.

Results

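The mitosis and G2/M genes described here are 41 genes whose products drive entry into mitosis, build the spindle, hold chromosomes at the kinetochore, and take the cell through anaphase and cytokinesis. A probe belongs to a gene when its symbol equals that of the gene, and the detected probe with the highest mean signal stands for it. The table held such a probe for 40 of the 41 genes, and all 40 were among the 11565 gene symbols that passed the detection filter. AURKA had no probe under that symbol, while a probe carried its older name STK6 and is given separately. CDC2 is the older name of CDK1 and is used as the table has it. ECT2 was detected on 15 arrays and the other 39 genes on all 16.

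The cells were MCF-10HER-2, made from the nontransformed breast epithelial line MCF-10A by transduction to overexpress the HER-2 receptor kinase stably. They grew in medium with epidermal growth factor and without insulin. The small molecule CP724,714 inhibits the HER-2 kinase and was added at 1 µM with fresh medium, and total RNA was taken from parallel cultures every 3 h from 0 to 45 h. The 0 h culture (n = 1) was the untreated one, and each of the 15 treated time points also had n = 1, so neighbouring time points had to stand in for replicates and nothing says how far 2 cultures at 1 time would differ. No untreated culture later than 0 h was analysed here, so the inhibitor, the fresh medium and the time in culture cannot be told apart.

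Each array detected 10363 to 11436 probes at a detection p under 0.05. The arrays fell in 2 groups by background signal, 135.9 to 148.9 from 0 to 21 h and 164.5 to 173.9 from 24 to 45 h. The 9 h and 18 h arrays were dim, with upper quartiles of 397.3 and 418.4 against 553.2 to 803.7 on the others. Of 9 epithelial markers 7 were detected on 3 or more arrays, with a summed signal of 64800 to 104500, and of 9 markers of fibroblasts, leukocytes and endothelium 3 were, with a sum of 2662 to 2847. Both sums include probes that were not detected. COL1A1, COL1A2, PDGFRB, CD3D and CDH5 were detected on no array, and the basal keratin KRT14 on 1. The brighter probe of the epithelial marker LAMB3 was detected on 2 arrays although its mean log2 signal was 11.96, so the filter also dropped a bright probe. The leukocyte marker CD14 and the endothelial marker PECAM1 were detected on all 16 arrays, and 1 probe of the leukocyte marker PTPRC on 7. The mean log2 signals of these 3 were low, at 8.25, 8.16 and 7.95 against a background of 7.88. The brighter of the ERBB2 probes was detected on 7 arrays, near background, so the labelled overexpression of HER-2 could not be checked here.

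As background, transcripts of this kind are low while a cell rests in G1 and accumulate through S phase to a peak in G2 and mitosis, after which many of the proteins are destroyed. In resting and early G1 cells the DREAM complex, built on a MuvB core, holds their promoters silent. In later phases the MuvB core works with B-MYB and FOXM1 to switch the same promoters on, and NF-Y binds their CCAAT boxes. The share of a culture that is in G2 or mitosis therefore sets much of the level of these transcripts in a bulk sample, and in such samples fewer cells in a phase and less RNA per cell cannot be told apart.

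The median of the 40 genes fell to 6 h, rose to 21 h, dropped at 24 h, climbed to 33 h and dropped again at 36 h. Signals below are log2 values after background correction and quantile normalization. The median over the 40 genes read 10.47, 9.37, 8.99 and 9.16 on the arrays from 0 to 9 h. On those from 12 to 21 h it read 10.59, 10.66, 10.87 and 10.90. From 24 to 33 h it read 9.66, 10.07, 10.41 and 10.66, and from 36 to 45 h it read 9.92, 9.82, 9.79 and 9.57. The steps at 12, 24 and 36 h each lay between 1 run of 4 consecutive arrays and the next, and whether the arrays were also processed in such runs cannot be read from the labels. The hours 9, 21, 24 and 45 were picked with this course known. Counts at these hours therefore describe it and are no independent test of it, also where the share of all probes stands beside them.

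**Figure D1:**
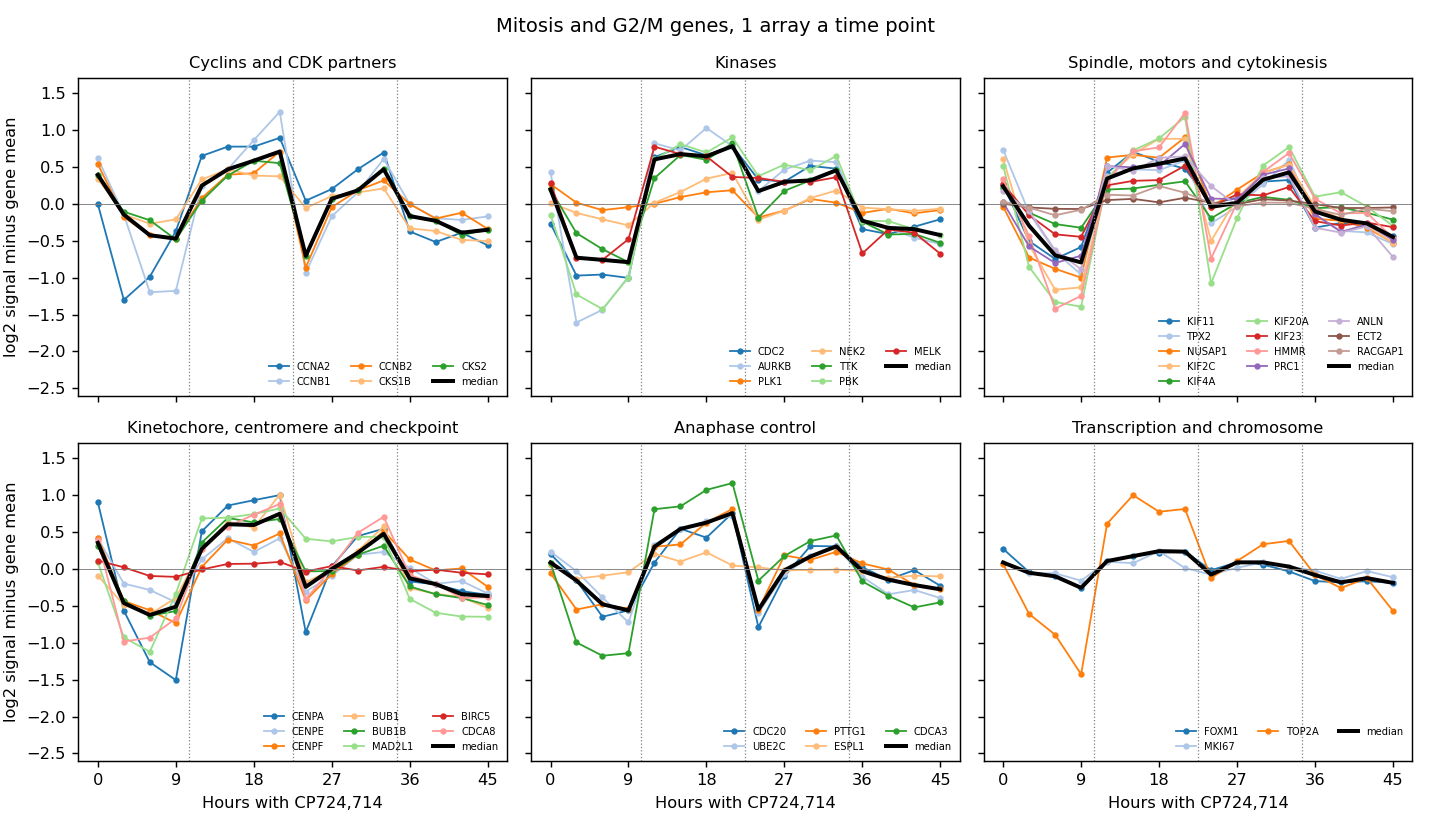
Course of the 40 mitosis and G2/M genes by role. The horizontal axis is hours with inhibitor, the vertical axis the log2 signal minus the mean of the gene over 16 arrays; each coloured line is 1 gene, each point 1 array, the black line the median of the role, and dotted lines mark the steps at 12, 24 and 36 h. All 40 genes lie lower at 9 h than at 0 h, higher at 21 h than at 9 h, and lower at 24 h than at 21 h.

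Genes of the set followed each other closely. Over the 16 arrays the median Pearson r of the 780 pairs was 0.837, with a range of 0.358 to 0.987, as a description of courses that share every array. BUB1B, a spindle checkpoint kinase, and TTK, the kinase that starts the checkpoint at unattached kinetochores, lay closest to the median course, with r of 0.984 each. PLK1, which drives mitotic entry and spindle assembly, lay farthest at 0.689, and its probe was dim with a mean of 8.18 against a background of 7.88. In all, 13 of the 40 genes had a mean log2 signal under 9. They included KIF11, KIF23, CENPE, CENPF, FOXM1, MKI67 and BIRC5. The median change from 9 to 21 h was 0.49 (log2) in these 13 and 1.55 in the 27 brighter genes. How far nearness to background made the fold changes of dim probes smaller was not tested.

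The promoters of these genes were examined for 2 motifs, the CCAAT box and the site of the MuvB core, since the genes moved together. The CCAAT box was searched as CCAAT and its reverse complement ATTGG. The cell cycle genes homology region (CHR), the site of the MuvB core, was searched as TTTGAA with its reverse complement TTCAAA and as the palindrome TTTAAA, so that both strands were covered. RefSeq promoter windows (GRCh38.p14, 250 bases before to 50 after a start) were found for 33 of the 40 genes in 37 windows. Stretches with both motifs are printed for 1 gene of each role, the gene with the largest rise from 9 to 21 h among those with both upstream of the start. Each runs 5′ to 3′ toward the start, ends before it, and has both motifs in capitals.
CCNB1, chr5:69167053-69167135, plus strand: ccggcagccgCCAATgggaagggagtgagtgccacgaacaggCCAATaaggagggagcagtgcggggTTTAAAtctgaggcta
CDC2 (CDK1), chr10:60778390-60778477, plus strand: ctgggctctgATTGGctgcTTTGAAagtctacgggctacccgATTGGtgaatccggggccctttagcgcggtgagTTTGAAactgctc
KIF20A, chr5:138179008-138179086, plus strand: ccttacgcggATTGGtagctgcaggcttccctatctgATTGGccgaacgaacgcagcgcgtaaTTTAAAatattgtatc
CENPA, chr2:26785841-26786053, plus strand: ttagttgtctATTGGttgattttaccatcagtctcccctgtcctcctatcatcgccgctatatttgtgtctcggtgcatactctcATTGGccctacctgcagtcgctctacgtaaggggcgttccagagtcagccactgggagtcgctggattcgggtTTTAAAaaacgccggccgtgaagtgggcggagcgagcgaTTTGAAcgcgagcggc
PTTG1, chr5:160421742-160421841, plus strand: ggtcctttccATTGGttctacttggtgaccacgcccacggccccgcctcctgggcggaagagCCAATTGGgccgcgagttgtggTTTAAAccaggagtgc
TOP2A, chr17:40417935-40418146, minus strand: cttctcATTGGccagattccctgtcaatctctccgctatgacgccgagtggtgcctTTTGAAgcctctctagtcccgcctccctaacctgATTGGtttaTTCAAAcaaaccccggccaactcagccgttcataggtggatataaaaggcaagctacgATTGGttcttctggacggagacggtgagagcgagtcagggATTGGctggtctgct

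The stretch of CCNB1 held 2 CCAAT boxes and 1 CHR word, at 30 bases before the start. That of CDC2 held 2 of each. In PTTG1 a forward and a reversed CCAAT box overlap, and both were counted. Among the 37 windows of the mitosis and G2/M genes 83.8% held a CCAAT box, 83.8% a CHR word and 70.3% both. Among all 35116 windows of the table the shares were 34.6%, 24% and 9.27%. The windows of S phase genes differed mainly in the CHR word, which 13.6% of 44 held while 61.4% held a CCAAT box. Of the 33 genes with a window, AURKB, BUB1, CCNA2, MELK and NEK2 held none of the CHR words searched, which says only that these letters are not in the window. A match is a description and not a measured site. The genes without a window here were TTK, PBK, TPX2, RACGAP1, BIRC5, UBE2C and FOXM1.

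**Figure D2:**
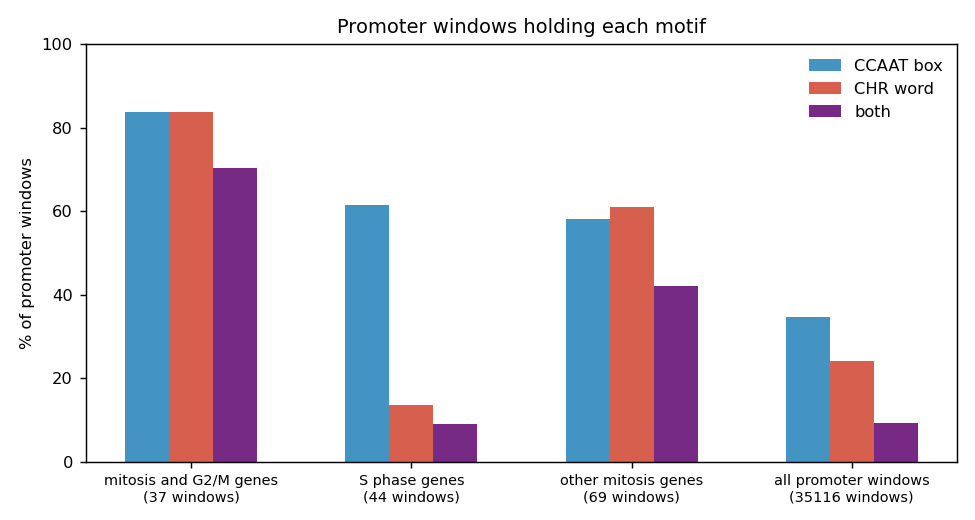
Share of promoter windows with each motif. Bars give the percent of windows of 300 bases that hold a CCAAT box, a CHR word or both, for 4 groups of genes. Both motifs stand in 70.3% of the windows of the mitosis and G2/M genes, 42% of those of other mitosis genes, 9.09% of those of S phase genes and 9.27% of all windows.

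The first phase was a fall. At 3 h all 40 genes were lower than in the untreated culture, against 48% of all tested probes, 13 of them by 1.7-fold or more, a fold reached downward by 2.35% of all 12321 tested probes. At 6 h all were again lower (49.3% of all probes), 23 of them that far (3.12%). At 9 h all were lower (49.5%), 21 of them that far (4.19%). Median scaling and another background correction also gave 40 lower at each of the 3 times. The raw signals were also all lower at 9 h than at 0 h, with a median change of -1.61 against -0.47 over all tested probes on that dim array. The lowest value of the whole course fell at 3, 6 or 9 h in 34 of 40 genes, against 35.2% of all probes, and at 9 h in 18, against 11.5%.

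The genes did not fall at 1 pace. CCNB1, the B-type cyclin that activates CDC2 at mitotic entry, read 10.70, 9.93, 8.88 and 8.90 at 0, 3, 6 and 9 h. CENPA, the histone variant that marks centromeres, read 11.51, 10.04, 9.34 and 9.10. Both went on falling after 3 h. CCNA2, the A-type cyclin of S phase and G2, read 10.46, 9.17, 9.48 and 10.10 instead. AURKB, the kinase of the chromosomal passenger complex, read 11.63, 9.59, 9.76 and 10.21, and MAD2L1, a checkpoint protein that restrains the anaphase-promoting complex, read 10.81, 9.79, 9.59 and 10.38. These 3 genes reached their low point by 6 h and were higher again at 9 h, while CCNB1 and CENPA were then 3.47-fold and 5.31-fold below 0 h.

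A trend line through the 4 arrays from 0 to 9 h, fitted in limma with its own level for each run of 4 arrays, fell in 28 of 40 genes at an adjusted p under 0.05, against 12.8% of all probes. The slope of CENPA was -2.38 ± 0.30 (log2 over 9 h, SE, adjusted p = 8.3e-05), that of TPX2, which targets Aurora A to the spindle, was -1.68 ± 0.17 (adjusted p = 2.27e-05), and that of CCNA2 was -0.24 ± 0.38 (adjusted p = 0.696). Without the 0 h array 11 genes passed. The test of the mean of 6 and 9 h against that of 0 and 3 h called 18 genes lower and 0 higher, against 13% and 12.9% of all probes. That count was 3 without the 0 h array, 6 without the 9 h array and 32 without the 3 h array, so it rests on single arrays.

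By role, 8 of 12 spindle and cytokinesis genes, 3 of 8 kinetochore and checkpoint genes and 1 of 7 kinases were among the 18. TTK was that kinase, with a difference of -0.60 ± 0.20 (SE, limma adjusted p = 0.0311). The kinases BUB1B and BUB1 were counted with the kinetochore genes, with differences of -0.54 (adjusted p = 0.0352) and -0.21 (adjusted p = 0.522). STK6 (AURKA), outside the counts, had -1.36 (adjusted p = 0.00234), so the share of kinases depends on this grouping. CCNB1 had -1.42 ± 0.36 (adjusted p = 0.00618) and lost the call without the 0 h array (adjusted p = 0.0613). The median difference was -0.55 for spindle genes, -0.49 for kinetochore genes and -0.40 for kinases, and whether roles differed was not tested. FOXM1, the transcription factor of the late cell cycle, had -0.29 ± 0.08 (adjusted p = 0.0146) on a dim probe.

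The second phase was a rise that every gene shared. From 6 and 9 h to 12 to 21 h all 40 genes rose at a limma adjusted p under 0.05, against 16.9% of all tested probes. The genes and the windows of all contrasts were chosen with earlier results of these data known. The p-values of these contrasts therefore describe the course and are no independent test of it. The count stayed at 36 to 40 when any 1 array was left out. The median rise was 1.20 (log2), while the median over all tested probes was -0.01. Values from 12 to 21 h lay above every value from 3 to 9 h in 38 genes, against 17.1% of all probes. The exceptions, PLK1 and BIRC5, the latter encoding survivin of the passenger complex, were dim. The untreated 0 h array is not part of this comparison. The median over the 40 genes was 10.47 at 0 h and 10.59 at 12 h, so much of the rise was a return toward the untreated level. Single genes lay on both sides, with CCNB1 at 10.70 and 10.33 and CDC2 at 11.35 and 12.25 at 0 and 12 h.

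Most of the rise took place in 1 interval of 3 h. At 12 h all 40 genes were higher than at 9 h, against 48.7% of all probes, 23 of them by 1.7-fold or more, against 2.5%. TOP2A, the topoisomerase that untangles sister chromatids, went from 9.97 at 9 h to 12.01 at 12 h, a 4.11-fold difference. CENPA went from 9.10 to 11.11, and CDCA3, a substrate adaptor that promotes mitotic entry, from 8.70 to 10.65. The 9 h array was dim, and its part in the size of this step was not tested. At 6 h, on an array of usual brightness, TOP2A read 10.50, CENPA 9.34 and CDCA3 8.66, also below 12 h.

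At 21 h all 40 genes were higher than at 9 h, against 48.8% of all probes, and 30 by 1.7-fold or more, against 2.39%, with a median change of 1.29. KIF20A, a kinesin of the late spindle, changed most, from 9.33 to 11.90 or 5.95-fold. CENPA differed 5.68-fold, HMMR, a spindle assembly factor, 5.58-fold and CCNB1 5.37-fold. Under median scaling the median change was 1.88 while that of all probes was 0.12, and all 40 genes were again higher. The 21 h array held the highest value of the whole course in 23 genes, against 3.38% of all probes.

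**Figure D3:**
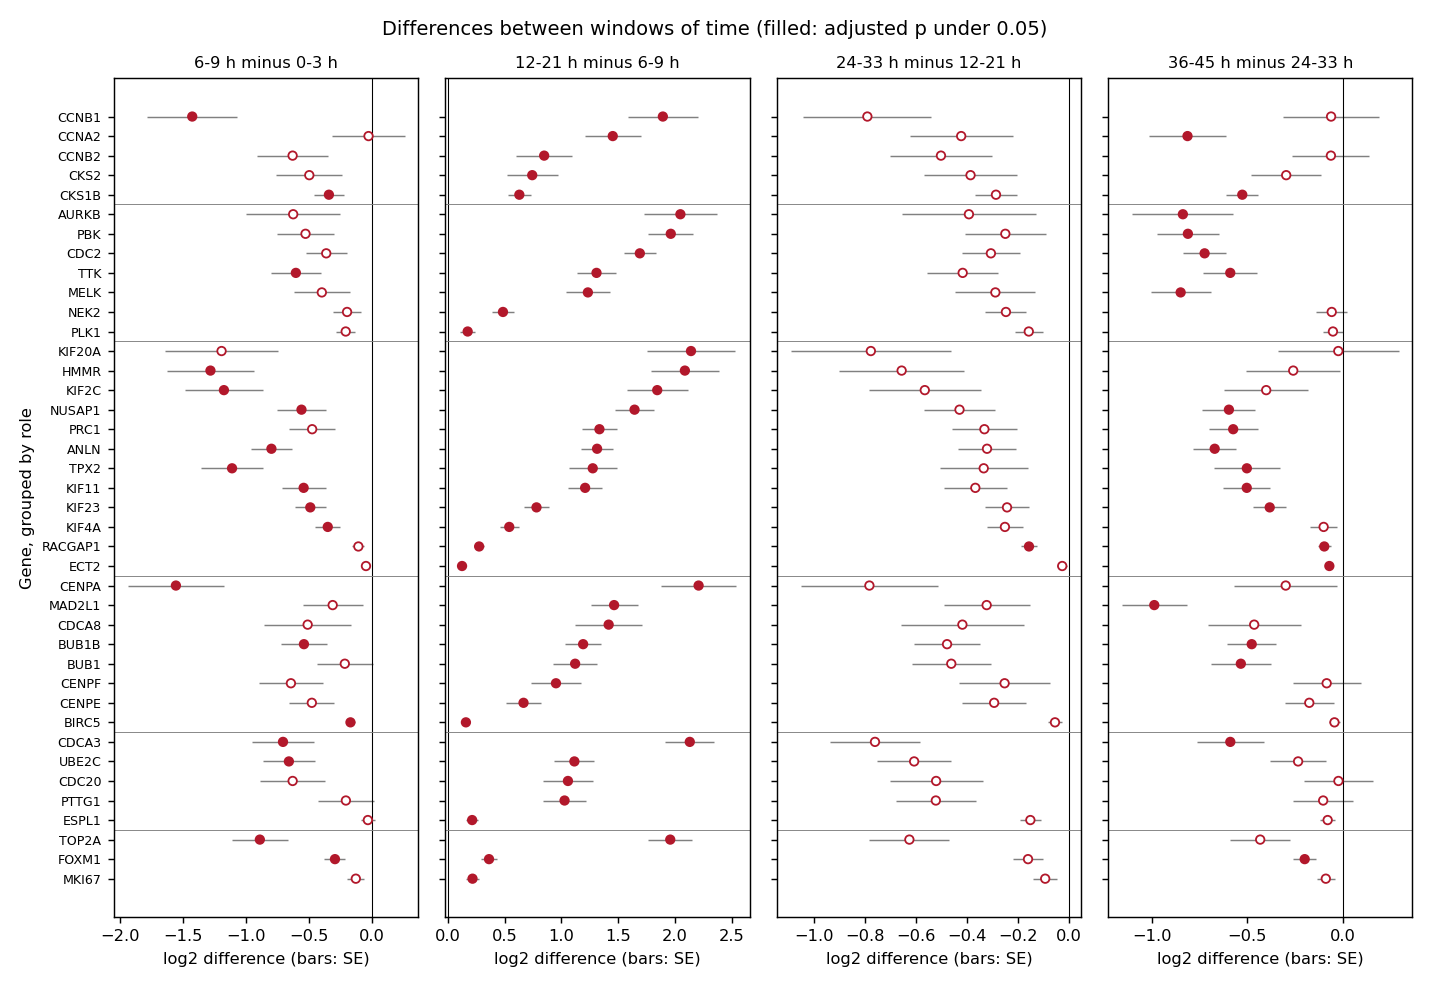
Differences between windows of time for each of the 40 genes. Points are log2 differences between means of neighbouring arrays, bars are standard errors, filled points have a limma adjusted p under 0.05, and grey lines separate the roles from cyclins at the top to transcription and chromosome genes at the bottom. Filled points number 18, 40, 1 and 20 of 40 from the left panel to the right.

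The rise was of similar median size in kinases, spindle and kinetochore genes. The median difference of 12 to 21 h over 6 and 9 h was 1.31 for 7 kinases, 1.30 for 12 spindle and cytokinesis genes and 1.16 for 8 kinetochore and checkpoint genes. CDC2, the kinase at the centre of mitotic entry, rose by 1.69 ± 0.14 (SE, adjusted p = 1.58e-07), AURKB by 2.05 ± 0.32 (adjusted p = 0.000112) and PBK, a mitotic kinase, by 1.96 ± 0.20 (adjusted p = 1.42e-06). NUSAP1, which bundles spindle microtubules, rose by 1.64 ± 0.17 (adjusted p = 2.02e-06) and ANLN, a scaffold of the contractile ring, by 1.31 ± 0.14 (adjusted p = 2.44e-06). The smallest differences, 0.12 for ECT2 and 0.16 for BIRC5, belonged to probes near background.

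Within the second run of arrays single genes differed in shape. CDC2 read 12.25, 12.39, 12.27 and 12.40 at 12, 15, 18 and 21 h, close to level. AURKB read 12.02, 11.92, 12.23 and 11.98. CCNB1 read 10.33, 10.55, 10.94 and 11.33 over the same hours and KIF20A 11.06, 11.45, 11.61 and 11.90. CDC2 and AURKB were thus near their height at 12 h, and CCNB1 and KIF20A climbed at each step. Roles did not divide this way, since the kinase NEK2 also climbed at each step (8.35, 8.50, 8.68 and 8.76) while the spindle motor KIF11 was highest at 15 h (9.65). The trend from 12 to 21 h pointed up in 37 of 40 genes, against 50.6% of all probes. It passed an adjusted p of 0.05 in limma in none, against 0.00812%, and an unadjusted p of 0.05 in 12, against 2.49% of all probes.

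MELK, a kinase of proliferating cells, was the exception that pointed furthest down. It read 10.97, 10.87, 10.84 and 10.56 from 12 to 21 h, with a slope of -0.38 ± 0.29 (log2 over 9 h, SE, limma adjusted p = 0.999). Its highest value lay at 12 h. ESPL1, which encodes separase, and MKI67, the proliferation marker Ki-67, also pointed down, both on dim probes.

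The third phase began with a drop between 21 and 24 h. All 40 genes were lower at 24 h than at 21 h, against 48.2% of all probes. By 1.7-fold or more 19 were lower, against 0.463% of all probes, so 19 of the 57 probes that fell this far were genes of the set. Median scaling left 38 lower and turned MELK and ESPL1. In raw signals, where the background had risen, 35 were lower and 5 higher, with a median change of -0.51 against 0.31 over all tested probes. The drop coincided with the change in background signal between the arrays up to 21 h and those from 24 h, and the 2 cannot be told apart. It also rests on 1 array at each side. Both hours were picked with the course of these genes known, so the counts are a description.

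The drop was steep in a part of the set. KIF20A went from 11.90 at 21 h to 9.65 at 24 h, 4.78-fold lower. CCNB1 went from 11.33 to 9.15, 4.53-fold lower, and HMMR from 11.66 to 9.68, 3.93-fold lower. CENPA fell 3.62-fold and CCNB2, the second B-type cyclin, 2.97-fold. CDC20, which activates the anaphase-promoting complex, went from 14.26 to 12.71, 2.92-fold lower. These are single-array differences without a test. For CCNB2, CKS2, CDC20, PTTG1 and PLK1 the 24 h value was the lowest of the course, 5 of 40 genes against 4.26% of all probes.

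Other genes changed less at that step. MELK read 10.56 at 21 h and 10.54 at 24 h, CDC2 12.40 and 11.94, and MAD2L1 11.54 and 11.13. The second, dimmer probe of CDC2 changed by -0.80, past 1.7-fold, where the brighter one changed by -0.45. ANLN changed by -0.40 and CKS1B, a subunit of cyclin-dependent kinase complexes, by -0.43. By role, 4 of 5 cyclins and CDK partners, 4 of 5 anaphase control genes, 4 of 8 kinetochore genes, 5 of 12 spindle genes and 1 of 7 kinases were at least 1.7-fold lower, the kinase being TTK at -1.01. BUB1 and BUB1B are also kinases but were counted with the kinetochore genes, and changed by -1.19 and -0.71. STK6 (AURKA), outside the counts, changed by -1.61, so the share of kinases depends on this grouping. The median change was -1.32 for anaphase control genes, -0.81 for kinetochore genes, -0.65 for spindle genes and -0.53 for kinases. CDCA3, which promotes mitotic entry, was counted with anaphase control and is the gene at its median of -1.32. Whether the roles differed was not tested. S phase genes went the other way at this step, with 31 of 39 higher at 24 h and 8 lower, where 48.2% of all probes were lower. By 1.7-fold or more 0 were lower (0.463% of all probes), and the median change was 0.27.

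**Figure D4:**
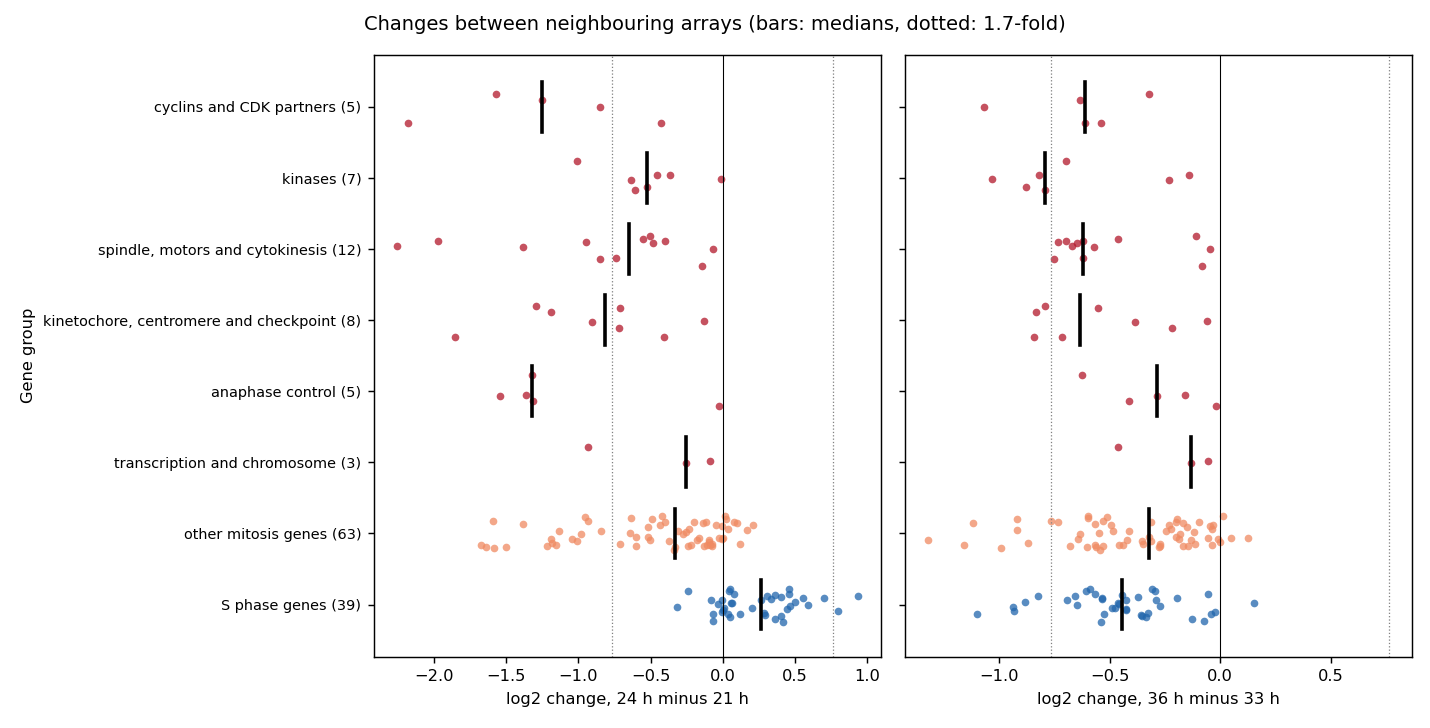
Changes between neighbouring arrays. The horizontal axes give the log2 change from 21 to 24 h (left) and from 33 to 36 h (right); each point is 1 gene, black bars are medians, dotted lines mark 1.7-fold, red points are the mitosis and G2/M genes by role, orange points other mitosis genes and blue points S phase genes. From 21 to 24 h the S phase genes have a median of 0.27 and the cyclins and CDK partners one of -1.26.

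From 24 to 33 h the genes climbed a second time. CCNB1 read 9.15, 9.91, 10.23 and 10.69 at 24, 27, 30 and 33 h. KIF20A read 9.65, 10.53, 11.24 and 11.50, and CENPA 9.75, 10.64, 11.05 and 11.15. At 33 h 38 genes were above 24 h, against 48.7% of all probes, 13 of them by 1.7-fold or more, against 0.219%, and the signal rose at every step in 22 of 40, against 5.1% of all probes. The trend within these 4 arrays pointed up in 38 genes, against 48.4% of all probes, and had an unadjusted p under 0.05 in 23, against 2.25%.

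After adjustment the trend from 24 to 33 h passed in 1 gene, UBE2C, the ubiquitin-conjugating enzyme of the anaphase-promoting complex, which was also the 1 probe of 12321 that passed (0.00812%). It read 13.12, 13.64, 13.88 and 14.02, with a slope of 0.89 ± 0.12 (log2 over 9 h, SE, limma adjusted p = 0.0431). Without the 24 h array 0 genes passed. Without the 0 h array, which adds to the pooled error of this fit but not to the line, 15 passed. Under median scaling 0 passed, 29 of 40 genes were higher at 33 h than at 24 h, and the median change was 0.19 in place of 0.46. The genes that turned included CDC2, PBK, MELK and MAD2L1. The other 2 probes of UBE2C were dim and did not pass the test of 12 to 21 h against 6 and 9 h (limma adjusted p = 0.146 and 0.702), which both probes of CDC2 passed.

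The mean from 24 to 33 h lay below that from 12 to 21 h in all 40 genes, with a median difference of -0.35. It passed an unadjusted p of 0.05 in 28, against 6.68% of all probes. After adjustment 1 gene passed, against 0.284%. This was RACGAP1, a regulator of cytokinesis, at -0.16 ± 0.03 (SE, limma adjusted p = 0.0453) on a dim probe, and it did not pass under several other settings. The highest value of the course lay between 12 and 21 h in 35 genes, against 19.5% of all probes, and at 33 h in 1, CENPF, a kinetochore protein.

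The last step down lay between 33 and 36 h, within the arrays of like background. All 40 genes were lower at 36 h than at 33 h, against 49.5% of all probes, and 38 under median scaling, where PTTG1 and ESPL1 turned. By 1.7-fold or more 8 were lower, against 0.528%. These were CCNA2, CDC2, AURKB, PBK, MELK, BUB1, MAD2L1 and CDCA8. The count depended on the setting, at 2 under median scaling and 20 at a 1.5-fold threshold.

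Of these 8 genes CCNA2, BUB1 and CDCA8 had also passed 1.7-fold at 24 h, and the other 5 had not by the probe used, while the second probe of CDC2 had. MELK read 10.55 at 33 h and 9.52 at 36 h, 2.05-fold lower, after a change of -0.02 at 24 h. CDC2 went from 12.09 to 11.27 and MAD2L1 from 11.15 to 10.31. CCNB1 went from 10.69 to 10.08 and CDC20 from 13.81 to 13.52, less than at 24 h. This comparison of steps is a description, since each rests on 2 arrays.

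From 36 h the genes stayed low or sank further. Here 20 genes were lower on the arrays of 36 to 45 h than from 24 to 33 h at a limma adjusted p under 0.05 and 0 higher, against 9.45% and 10.3% of all probes. The count was 13 without the 30 h array, 13 without the 42 h array and 12 under median scaling. MAD2L1 fell by 0.99 ± 0.17 (log2, SE, adjusted p = 0.000555), CDC2 by 0.72 ± 0.11 (adjusted p = 0.000266) and CKS1B by 0.53 ± 0.08 (adjusted p = 0.000319). AURKB fell by 0.84 ± 0.26 (adjusted p = 0.0316), a call that was lost under several settings with an adjusted p of up to 0.0837. CCNB1 had a difference of -0.06 ± 0.25 (adjusted p = 0.899) and CDC20 one of -0.02 ± 0.18 (adjusted p = 0.952).

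Of the kinases 5 of 7, AURKB among them, passed in this contrast, with a median difference of -0.72. The spindle genes had 8 of 12 and -0.39, the kinetochore genes 3 of 8 and -0.38, and the anaphase control genes 1 of 5 and -0.10. The gene counted with anaphase control was CDCA3 at -0.59 ± 0.18 (limma adjusted p = 0.0237). As CDCA3 promotes mitotic entry, this count depends on the grouping. A low value at 24 h lowers the mean from 24 to 33 h and so makes this contrast smaller. Within the last 4 arrays the trend pointed down in 38 genes, against 49.4% of all probes, and passed in 0 at an adjusted p of 0.05 (0% of all probes in limma) and in 0 at an unadjusted p of 0.05 (0.885%). Values from 36 to 45 h lay wholly below those from 24 to 33 h in 19 genes, against 15.4% of all probes, and wholly below those from 27 to 33 h in 29, against 17.6%.

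At 45 h 39 of 40 genes were below the untreated 0 h culture, against 48.6% of all probes, and 13 by 1.7-fold or more, against 4.43%. TPX2 read 10.89 at 0 h and 9.62 at 45 h, CENPA 11.51 and 10.25, and KIF2C, a microtubule depolymerase, 10.45 and 9.31. CDC2 was the gene not lower, with 11.35 at 0 h and 11.41 at 45 h. Against 24 h the picture was mixed, with 27 genes lower and 13 higher at 45 h, against 49% and 50.9% of all probes. By 1.7-fold or more, PBK, MELK, ANLN and MAD2L1 were lower and KIF20A higher, against 1.46% and 1.21% of all probes.

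A line through the 8 arrays from 0 to 21 h rose in 19 of 40 genes at a limma adjusted p under 0.05, against 14.6% of all probes. The lines of the earlier and the later arrays were fitted together, each with its own level and slope and with an error pooled over both. Fitted to the earlier arrays alone, 5 genes rose, and leaving out 1 array gave 10 (without the 21 h array) to 39 (without the 0 h array). A line through the 8 arrays from 24 to 45 h fell in none at an adjusted p under 0.05 and in 6 at an unadjusted p under 0.05, against 2.19% and 9.76%. Fitted to the later arrays alone, 19 genes fell. The shares of all probes in these separate fits are not given here. The difference between the 2 slopes was tested directly and was negative in 21 genes and positive in 0, against 12.1% and 12.7% of all probes. MAD2L1 had a slope of 1.66 ± 0.42 up to 21 h and of -1.37 ± 0.42 from 24 h (log2 over 21 h, SE), with a difference of -3.03 ± 0.59 (adjusted p = 0.00237). CCNB1, with its double peak, had a difference of -1.04 ± 0.87 (adjusted p = 0.41).

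A smooth curve of time with 4 degrees of freedom called 11 of 40 genes time-dependent at a limma adjusted p under 0.05, a smaller share than the 41.9% of all tested probes. The lowest adjusted p-values were those of MAD2L1 (adjusted p = 0.00665), PBK (adjusted p = 0.00988) and CDC2 (adjusted p = 0.0112). CKS1B, FOXM1, CCNA2, MELK, PRC1, ANLN, RACGAP1 and BUB1 also passed. CCNB1 and CDC20 did not (adjusted p = 0.662 and 0.807). With 5 degrees of freedom 36 genes passed, without the 24 h array 35, and without the 3 h array 4. The count thus moved with the stiffness of the curve and with single arrays. The share of all probes under these other settings is not given here, so these counts do not set the genes apart from other probes.

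STK6, the older name of AURKA, the Aurora kinase of the spindle poles, followed the same course outside the counts above. It read 12.46 in the untreated culture, 10.74 at 9 h, then 12.42 and 10.82 at 21 and 24 h, and 10.95 at the end. It was lower at 6 and 9 h than at 0 and 3 h by 1.36 (log2, limma adjusted p = 0.00234) and higher at 12 to 21 h by 1.31 (adjusted p = 0.000728). Its drop from 21 to 24 h lay between those of CENPA and CCNB2.

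Further genes of mitosis, from a list of 73 written from general knowledge, had smaller median changes. Some of their probes lay near background, with mean log2 signals down to 7.95 against 7.88. The part of brightness in the smaller medians was not tested. Of 63 tested, 53 were higher at 12 to 21 h than at 6 and 9 h (16.9% of all probes) and 0 lower, and 29 were lower at 36 to 45 h (9.45%). At 24 h 54 were lower than at 21 h (48.2%), 17 of them by 1.7-fold or more (0.463%), and 9 were higher. The 21 h array held the highest value in 20. The median change from 9 to 21 h was 0.70, and the largest were CENPM (C22orf18 in the table) at 2.17, DLGAP5 (DLG7) at 2.07 and ASPM at 1.94. From 24 to 45 h SPC25 (SPBC25), of the NDC80 complex of the kinetochore, changed by -1.33, FBXO5, the inhibitor of the anaphase-promoting complex, by -1.20, and TRIP13, which remodels MAD2, by -1.17.

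S phase genes had their heights at other hours. Of 39 tested, 32 were higher and 1 lower at 12 to 21 h than at 6 and 9 h, against 16.9% of all probes higher. At 36 to 45 h 31 were lower than at 24 to 33 h and 0 higher, against 9.45% and 10.3%. Their median stood 0.49 above the gene mean at 12 h and sank to 0.16 by 21 h, then returned to 0.47 at 24 h and sank to 0.17 by 33 h. The median of the mitosis and G2/M genes climbed from 0.32 to 0.71 between 12 and 21 h, stood at -0.14 at 24 h and climbed to 0.38 by 33 h. None of the 39 S phase genes was highest at 21 h, where 3.38% of all probes were. MCM2, of the replicative helicase, and RRM2, of ribonucleotide reductase, were both highest at 24 h, where they were 0.45 and 0.94 above 21 h. Between the arrays at 21 and 24 h the 2 lists thus moved in opposite directions.

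**Figure D5:**
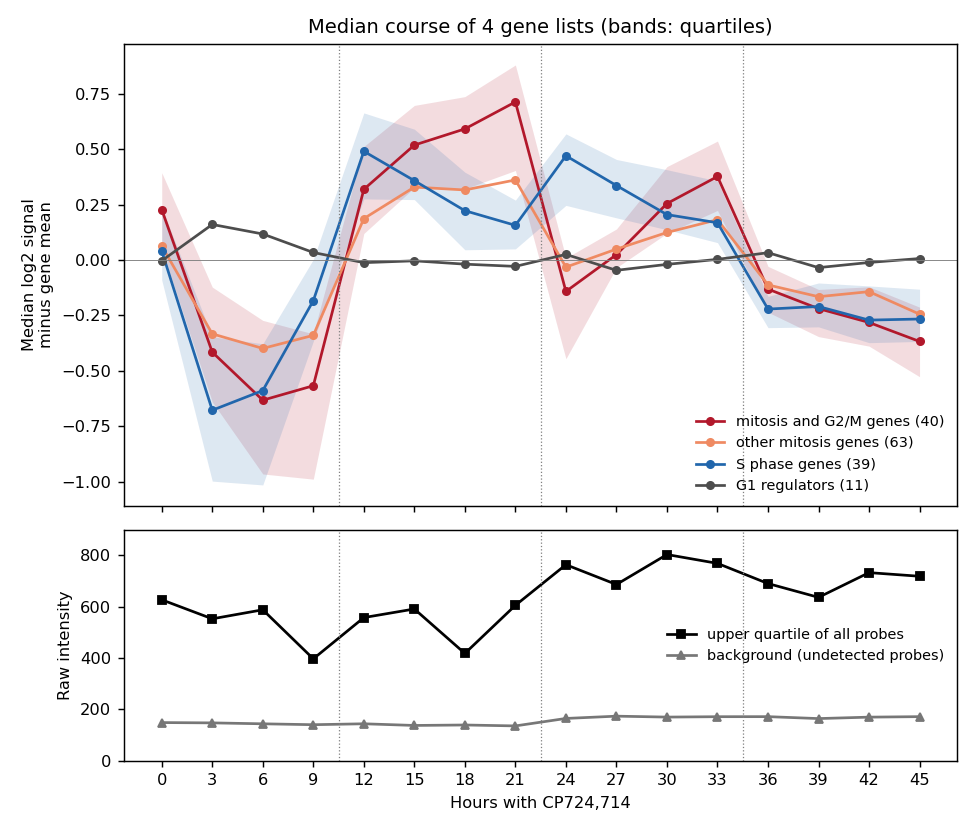
Median course of 4 gene lists and the brightness of the arrays. The upper panel gives the median log2 signal minus the gene mean against hours with inhibitor, with bands from the first to the third quartile for the mitosis and G2/M genes and the S phase genes; the lower panel gives the upper quartile of all probes and the background signal of each array on the linear intensity scale. The S phase median is 0.47 at 24 h, where that of the mitosis and G2/M genes is -0.14.

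G1 regulators and the regulators of these promoters had smaller median changes, but these medians cover opposite changes of single genes and probes near background. The median of 11 G1 regulators changed by 0.08 from 21 to 24 h. Single G1 regulators moved in opposite directions. CDKN1B, the inhibitor p27 of cyclin-dependent kinases, was higher at 36 to 45 h than at 24 to 33 h by 0.41 (log2, limma adjusted p = 0.0372), and the inhibitor CDKN1A (p21), named after its values were seen, differed by -0.83 (adjusted p = 1.87e-06) and, at 6 and 9 h against 0 and 3 h, by -1.27 (adjusted p = 4e-07). Of the 11, 1 was higher and 4 lower at 12 to 21 h than at 6 and 9 h, against 16.9% higher and 2193 of 12321 lower among all probes. At 36 to 45 h 3 were higher and 1 lower, against 10.3% and 9.45% of all probes. E2F1 differed by -0.34 (adjusted p = 0.0407). Of 12 genes of the MuvB core and DREAM, 3 were higher and 1 lower at 12 to 21 h, against the same shares of all probes. At 36 to 45 h 4 were lower and 0 higher, against 9.45% and 10.3%. In so short a list these counts are a description. MYBL2, which encodes B-MYB, was detected on 6 arrays near background. The probes of RBBP4, TFDP2 and LIN52 were also near background, with mean log2 signals of 7.96, 7.96 and 8.01. Single genes of this list changed more, here named after their values were seen. RBL2 differed by 1.14 between 45 and 0 h, and TFDP1 by -1.14 between 6 and 0 h.

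The genes outside the set whose course was most like its median course over the 16 arrays, by Pearson r, were CEP55 (0.982), KNTC2 (NDC80, 0.978), SPAG5 (0.976), C20orf129 (FAM83D, 0.973) and DLG7 (DLGAP5, 0.972). They were followed by FLJ20364 (0.970), HMGB2 (0.964), KIF14 (0.962), DKFZp762E1312 (0.956) and CDC25C (0.951). Of these 10, 8 stand in the list of further mitosis genes. The ranking is a description over 16 arrays and rests on 1 array a time point.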

How the data were processed

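Total RNA of 16 MCF-10HER-2 cultures was hybridised, 1 array each, to Illumina human Ref-8 v2 beadchips. The authors deposited the intensity of each probe before normalization between arrays, and a detection p-value that sets it against the negative controls of its array. The table held 20589 probes. For their own comparisons the authors normalized by quantiles.

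Intensities were corrected and quantile normalized with neqc in limma 3.58.1 (R 4.3.3, offset 16) and taken to log2. The 12321 probes detected (p under 0.05) on at least 3 arrays were tested. Differences between windows of neighbouring time points, slopes up to 21 h and from 24 h, slopes within runs of 4 arrays, and a natural spline of time with 4 degrees of freedom were fitted to all tested probes by lmFit and eBayes, with the trend option. P-values were adjusted by Benjamini-Hochberg over all tested probes at a threshold of 0.05. The error is the scatter of arrays about each model, which holds no replicate culture. Single-array changes carry no test and use the study's threshold of 1.7-fold. The fits were tested on simulated data. Each fit was repeated with other normalizations, filters and thresholds and without each array. Brighter probes stood for genes with several.

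The members, the other gene lists and the windows were chosen with earlier results of these data known. The slopes within runs of 4 arrays and the comparison of 36 with 33 h were chosen after seeing the data. All members may be named, the 3 further mitosis genes with the largest change in each of 2 comparisons, and the 10 genes most like the median course. Promoter windows came from a RefSeq table (GRCh38.p14).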

Additional observations from a re-analysis of the deposited data

Results flagged for a closer look

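The slope from 24 to 45 h was lower than that from 0 to 21 h in 21 of 40 mitosis and G2/M genes, by a test of the difference itself (limma adjusted p under 0.05), and higher in 0. The median slope was 1.05 (log2 over 21 h) on the earlier 8 arrays and -0.33 on the later 8. Leaving out the 45 h array gave 13 genes, leaving out the 0 h array 35. The earlier and later arrays also differ in background signal, and the part of that difference in the result was not tested.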

How the results depend on the processing

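No paired analysis was possible because no time point was repeated. The rise at 12 to 21 h kept its count within 1.5 times under every setting run. Median scaling left 17 time-dependent genes, 7 lower at 6 and 9 h, 0 lower at 24 to 33 h, 12 lower at 36 to 45 h and 2 past 1.7-fold at 36 h. With normexp and an offset of 50 the numbers lower at 24 to 33 h and past 1.7-fold at 36 h were 0 and 3. Without the detection filter 6 genes were time-dependent and 0 lower at 24 to 33 h. Without the dim 9 h and 18 h arrays the counts were 5 time-dependent, 3 lower at 6 and 9 h and 0 lower at 24 to 33 h. The spline called 36 genes with 5 degrees of freedom and 35 with the background group as a block. Without the mean-variance trend 11 genes were lower at 6 and 9 h and 0 at 24 to 33 h. Fitted apart, each group of arrays with its own error, the earlier arrays gave 5 rising and the later arrays 19 falling genes. At 1.5-fold 22 genes were lower at 45 h than at 0 h and 20 at 36 h than at 33 h; at 2-fold the counts were 3 and 2, with 13 lower at 9 h than at 0 h and 2 lower at 45 h than at 24 h. The cause of these moves was not tested, and the share of all probes under each setting is not given here.

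Leaving out each array in turn gave 4 to 35 time-dependent genes, 3 to 32 lower at 6 and 9 h, 36 to 40 higher at 12 to 21 h, 0 to 11 lower at 24 to 33 h, 13 to 22 lower at 36 to 45 h, 10 to 39 rising to 21 h, 0 to 3 falling from 24 h and 13 to 35 with a lower later slope. The 0 h array decided most of the upper ends of the slope counts. For 8 named genes and 3 contrasts, 157 values under other settings kept their side of the threshold and 11 lost it; without 1 array 351 kept it, 21 lost it and 12 gained it. Signals near the background of 7.88 limit the 13 dim genes, whose median fold changes were smaller than those of the brighter genes.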
